A study of Mus musculus with 6 samples.

Results

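Astrocytes take up the potassium that active neurons release and pass water across their endfeet, the processes that wrap blood vessels. The 8 genes described here encode parts of this machinery: the inwardly rectifying potassium channel subunits Kcnj10 and Kcnj16, the sodium pump beta subunit Atp1b2, the water channel Aqp4, the endfoot membrane protein Mlc1, and the dystroglycan (Dag1), dystrophin (Dmd) and dystrobrevin (Dtna) scaffold that holds channels at the endfoot membrane. The members were chosen by name, and each of the 8 symbols matched 1 of the 43383 rows of the deposited expression table. Astrocytes positive for GFP were sorted from male Aldh1l1-eGFP mice at 4 weeks of age (somatosensory cortex), a transgenic line in which regulatory sequence of the astrocyte gene Aldh1l1 drives GFP, so that both groups carry the same transgene. Upper-layer astrocytes (ULAs) came from layers II–IV and deep-layer astrocytes (DLAs) from layers V and VI, with 3 libraries per layer, 1 from each of 3 brains. Layer I, the meninges and the corpus callosum had been cut away and tissue at the border of layers IV and V was lost, so that astrocytes lining the pial surface, whose endfeet form the outer border of the cortex, were not meant to be in the samples.

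As background, potassium enters astrocytes through channels built from Kcnj10, alone or together with Kcnj16, and through the sodium pump. Dystroglycan spans the endfoot membrane: its outer part binds laminin and agrin of the vessel's basement membrane, and its inner part binds dystrophin, which carries dystrobrevin and the syntrophins. Mlc1 forms a complex with the adhesion molecule Hepacam at contacts between astrocytes and at endfeet, and loss of either causes a leukoencephalopathy with swollen white matter in humans.

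The values are RPKM, read numbers scaled to mRNA length and to the size of each library, so levels of different genes are compared per length. The steps between the lowest values of short rows put the depth at between 24.4 and 26.7 M reads in ULAs and between 19.7 and 29.6 M reads in DLAs. The sorted cells carried the label's cell type: the 9 astrocyte markers summed to between 11500 and 12300 RPKM in ULAs and between 10600 and 11800 in DLAs. Against this, 9 endothelial markers summed to at most 1.90 and 3.33 RPKM in ULAs and DLAs, and 6 of them, among them Pecam1 and Cdh5, were listed at 0 in at least 1 library. The 8 mural cell markers summed to between 16.2 and 23.3 RPKM in ULAs and between 12.2 and 19.2 in DLAs, and 1 of them, Rgs5, was called higher in ULAs. Most of this sum was Pdgfrb, at 12.21 to 19.84 RPKM in ULAs and 10.31 to 16.91 in DLAs, which was not called. Of 7 oligodendrocyte markers 6 were called higher in DLAs and the other 1 was too low to be tested, with sums of 36.2 to 110 RPKM in ULAs and 107 to 212 in DLAs. Red blood cell markers summed to between 0.94 and 1.79 RPKM in ULAs and between 15.3 and 76.7 in DLAs, with 3 of the 4 markers in the table called higher in DLAs. These 3 are beta globin genes so alike that they can share reads. The markers of fibrous or pial astrocytes summed to between 15.2 and 17.3 RPKM in ULAs and between 21.2 and 34.5 in DLAs. Of the 3, the intermediate filament gene Gfap made up most of the sum and was called higher in DLAs. Vim was higher in ULAs in 2 of 3 brains and was not called. Myoc was higher in ULAs in 3 of 3 brains but, at a mean of 0.095 RPKM, was too low to be tested. Microglial markers summed to 13.0 to 13.8 RPKM in ULAs and 8.63 to 11.7 in DLAs, and meningeal fibroblast markers to 3.07 to 4.10 and 4.95 to 6.27. Most of the microglial sum was P2ry12, at 11.63 to 12.6 RPKM in ULAs and 7.76 to 10.22 in DLAs, which was not called.

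All 8 members were expressed in every library, at levels that spanned a 30.8-fold range from Kcnj16 to Atp1b2. The mean RPKM over the 6 libraries was 780 for Atp1b2, 603 for Mlc1, 211 for Aqp4, 122 for Dtna, 56.5 for Dag1, 36.7 for Dmd, 30.1 for Kcnj10 and 25.3 for Kcnj16. The lowest library of Atp1b2, Mlc1, Aqp4, Dtna and Dmd lay above the highest library of the next gene in this order. Dag1 and Dmd overlapped, since Dmd was above Dag1 in the DLAs of brain 3, and so did Kcnj10 and Kcnj16, although Kcnj10 was the higher of the pair in 6 of 6 libraries. Each value rested on at least 1825 reads, so that counting error was at most 2.34% of a value, while the SD between the libraries of a layer ran from 2.45% (Kcnj10 in DLAs) to 18.5% (Dag1 in DLAs) of the mean. The place of Dmd depends on its length: the table divides its reads by an mRNA of 13852 bases, whereas the gene also makes short products from internal promoters. The GENCODE M21 basic annotation lists 3 Dmd transcripts, and if all reads had come from the one of 14910, 4438 or 1858 bases, the same reads would give a mean of 34.1, 114 or 273 RPKM, which spans places from just above Kcnj10 to above Aqp4. The table cannot separate these transcripts.

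Between the layers, 1 of the 8 members differed: Dag1, which was higher in ULAs. The test was limma on log2(RPKM + 1) with brain and layer as terms, over the 13999 rows with a mean of at least 1 RPKM, and a gene was called at a Benjamini-Hochberg adjusted p under 0.05. Over all rows tested, 0.714% were called higher in ULAs (100 rows) and 0.914% higher in DLAs (128 rows), a balance that turned under quantile normalization (138 and 103 rows). The log2 differences of the members (ULAs minus DLAs) ran from −0.14 to 0.56 with a median of 0.13, against a median of −0.03 over all rows, and 6 of the 8 lay above 0, as did 45% of all rows. For 7 of the 8 members the whole 95% interval of the difference lay within 0.5 of 0 on the log2 scale. In RNA from pools of sorted cells, a lower share of cells with an mRNA and less of that mRNA per cell cannot be told apart.

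**Figure D1:**
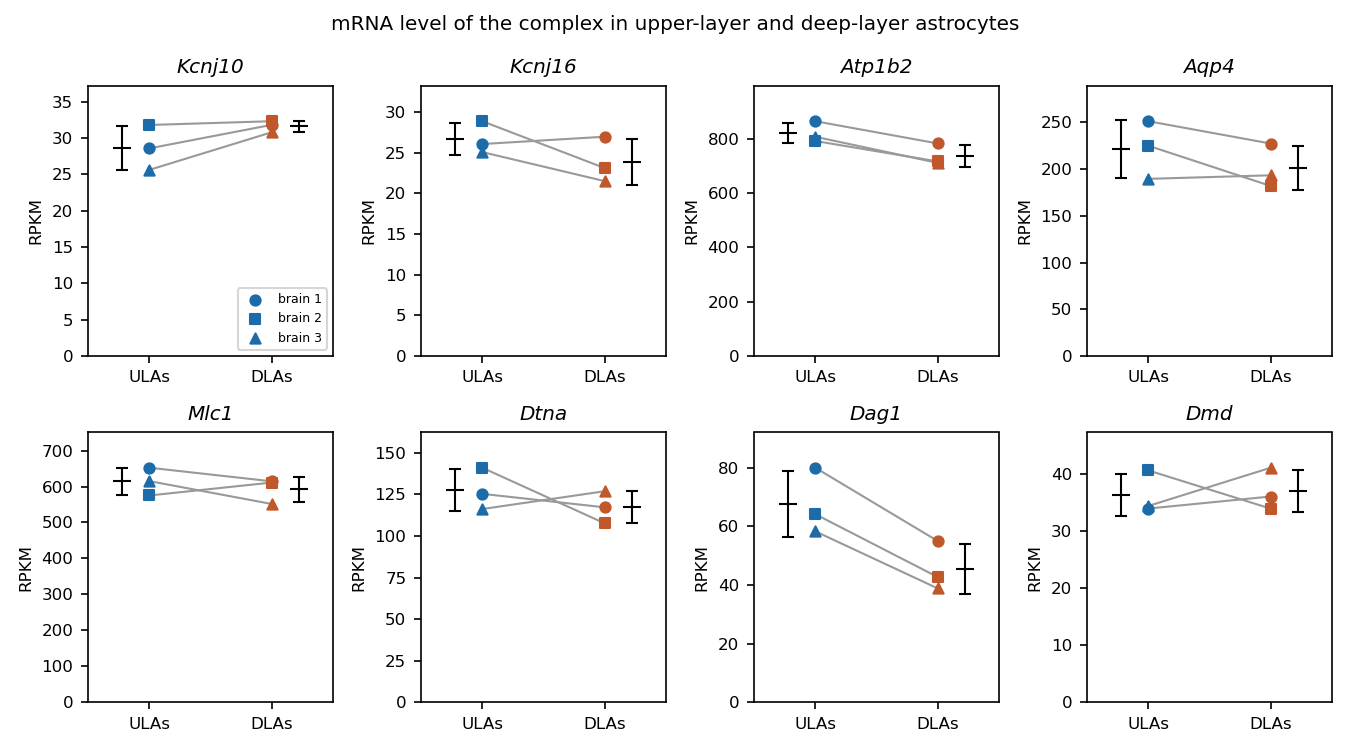
RPKM of each of the 8 genes (y axes, from 0) in ULAs and DLAs, with 1 symbol per brain, grey lines joining the libraries of a brain, and black bars for the mean ± SD of 3 libraries. The lines of Dag1 fall in parallel from ULAs to DLAs, those of Atp1b2 fall slightly in all 3 brains, and those of Dmd, Dtna and Mlc1 cross.

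Dag1 encodes dystroglycan, the laminin receptor that links the basement membrane to dystrophin. Its gene (NM_010017) has 4 exons on the minus strand of chromosome 9, from 108108289 to 108166067 in the mm9 build, with the coding sequence between 108109590 and 108120622. In brains 1, 2 and 3, ULAs held Dag1 at 79.95, 64.13 and 58.29 RPKM, and DLAs held it at 54.97, 42.70 and 38.83 RPKM. Both layers were highest in brain 1 and lowest in brain 3, and every ULA value lay above every DLA value, if only just (58.29 against 54.97). The ratio of ULAs to DLAs hardly varied, at 1.45, 1.5 and 1.5 in the 3 brains. The mean level of ULAs, 67.5 ± 11.2 RPKM (SD, n = 3), exceeded the 45.5 ± 8.43 RPKM of DLAs by a log2 difference of 0.56 (SE 0.10, 95% interval 0.35 to 0.78, adjusted p = 0.0187, limma), and a larger difference in either direction was found for 3.21% of all rows tested.

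The call of Dag1 rests on the pairing of libraries by brain, since without the brain in the model the difference was the same but its adjusted p was 0.328. The gene also missed the threshold without brain 1 (adjusted p = 0.106), without a variance trend (0.0738) and with no filter on low RPKM (0.3), while its log2 difference stayed between 0.50 and 0.64 in all 11 alternative settings. Oligodendrocyte and red blood cell markers and Gfap were higher in DLAs, where Dag1 was lower. The mural cell marker Rgs5 was called higher in ULAs, as Dag1 was. Sums of microglial markers were higher in ULAs and those of meningeal fibroblast markers higher in DLAs, both without overlap. The part of all these markers in the result was not tested.

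Neither of the other scaffold genes passed the test. Dmd (NM_007868) spans 2256.2 kb on the plus strand of chromosome X, from 80194209 to 82450389 in mm9, with 79 exons, and 5 other rows of the table lie inside this span, none above 0.85 RPKM in any library. For brains 1, 2 and 3, Dmd stood at 33.93, 40.61 and 34.38 RPKM in ULAs, against 36.04, 33.91 and 41.08 RPKM in DLAs. The layers overlapped almost completely, and brains 2 and 3 moved in opposite directions, with ratios of 1.20 and 0.84. The log2 difference was −0.03 (SE 0.12, 95% interval −0.29 to 0.24, adjusted p = 0.935, limma), so a difference of the size seen for Dag1 lay outside its interval.

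Dtna encodes alpha-dystrobrevin, which binds dystrophin and the syntrophins, and its row (NM_010087 and NM_207650) covers 22 exons over 244.3 kb of chromosome 18, from 23573916 to 23818215 on the plus strand in mm9. Its level was 125.34, 141.04 and 116.20 RPKM in ULAs and 117.22, 107.60 and 126.92 RPKM in DLAs. ULAs were higher in brains 1 and 2 and lower in brain 3, and the ranges overlapped. The log2 difference was 0.12 (SE 0.11, 95% interval −0.13 to 0.37, adjusted p = 0.644). Dtna and Dmd were both highest in brain 2 among ULAs and in brain 3 among DLAs, and correlated with r = 0.74 over the 6 libraries.

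**Figure D2:**
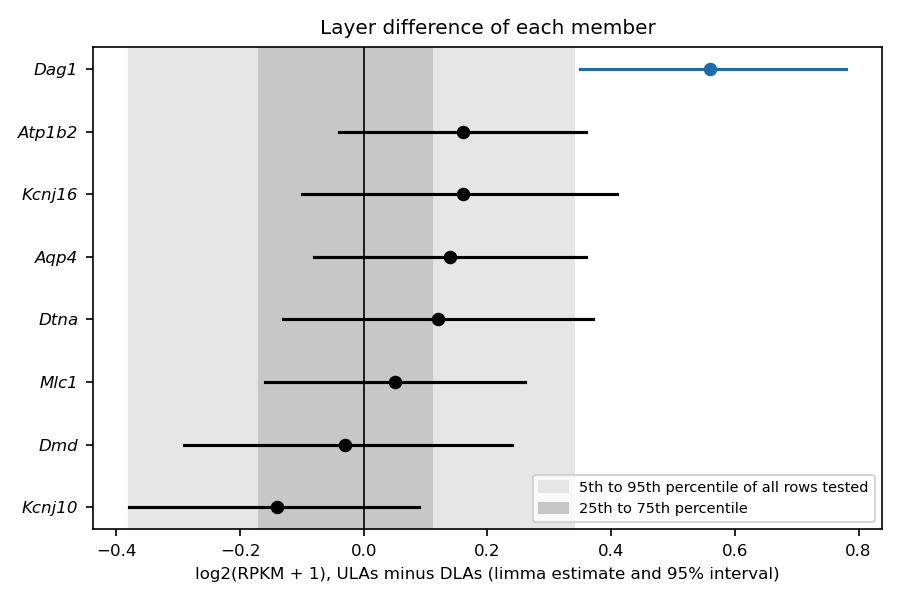
Layer difference of each gene on the log2(RPKM + 1) scale (x axis, ULAs minus DLAs), as the limma estimate (points) with its 95% interval (lines), over shaded bands for all 13999 rows tested. Dag1 (blue, adjusted p = 0.0187) lies at 0.56, outside the band that holds the rows from −0.38 to 0.34, and the intervals of the other 7 genes include 0.

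Neither of the potassium channel subunits passed the test. Kcnj10, the pore-forming subunit that sets the potassium conductance of astrocytes, lies on chromosome 1 from 174271341 to 174304216 (NM_001039484, plus strand, 2 exons, mm9). Kcnj10 was at 28.55, 31.77 and 25.59 RPKM in ULAs and at 31.79, 32.29 and 30.77 RPKM in DLAs. It was higher in DLAs in 3 of 3 brains, by very little in brain 2, and the layers overlapped. The 3 DLA libraries were close to each other (a coefficient of variation of 2.45%) while the ULA libraries varied more (10.8%). The log2 difference was −0.14 (SE 0.11, 95% interval −0.38 to 0.09, adjusted p = 0.535), and 23.2% of the rows tested shared this pattern of DLAs above ULAs in every brain.

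Kcnj16, which joins Kcnj10 in heteromeric channels, lies on chromosome 11 from 110829347 to 110889281 (plus strand, 6 exons, mm9, with NM_010604 and 4 other RefSeq transcripts in 1 row). Its level was 26.09, 28.90 and 25.10 RPKM in ULAs and 26.99, 23.13 and 21.52 RPKM in DLAs. It was the higher in ULAs in brains 2 and 3 and slightly lower in brain 1, with a log2 difference of 0.16 (SE 0.11, 95% interval −0.10 to 0.41, adjusted p = 0.521). The ratio of Kcnj10 to Kcnj16, taken within each library, was 1.09, 1.10 and 1.02 in ULAs and 1.18, 1.40 and 1.43 in DLAs. The ratio was thus higher in DLAs in 3 of 3 brains and did not overlap between the layers. Its log2 value was lower in ULAs by 0.11, 0.34 and 0.49 in brains 1, 2 and 3 (exact sign-flip permutation test, 2-sided p = 0.25, the smallest p that 3 pairs can give). It was 1 of 9 ratios compared, and no adjusted p could pass in such a design.

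Atp1b2, the beta subunit of the sodium pump that prevails in glia and also serves as an adhesion molecule, was the most abundant member. It has 7 exons on the minus strand of chromosome 11, from 69413252 to 69419462 in mm9 (NM_013415). Atp1b2 was at 865.22, 792.32 and 807.94 RPKM in ULAs and at 783.18, 716.86 and 711.48 RPKM in DLAs. Every ULA value lay above every DLA value, and the ratio was 1.10, 1.11 and 1.14 in the 3 brains. This small difference (log2 0.16, SE 0.09, 95% interval −0.04 to 0.36, adjusted p = 0.413) did not pass the test. Dag1 and Atp1b2 were the 2 members whose layers did not overlap and the 2 members that were higher in ULAs in 3 of 3 brains; among all rows, 6.59% had every ULA value above every DLA value, 9.27% the reverse, and 15.2% were higher in ULAs in 3 of 3 brains.

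Atp1b1, the more widespread beta subunit of the sodium pump, was less abundant than Atp1b2. It was measured at 347.02, 307.58 and 327.11 RPKM in ULAs and at 249.44, 216.80 and 265.92 RPKM in DLAs, with no overlap and a log2 difference of 0.43 (SE 0.09, adjusted p = 0.0579), which missed the threshold by little and passed it when only rows of at least 5 RPKM were tested (adjusted p = 0.0357), under quantile normalization (0.029) and without brain 3 (0.00643), but not in the other 8 settings. The ratio of Atp1b2 to Atp1b1 was therefore 2.51 ± 0.0557 in ULAs and 3.04 ± 0.327 in DLAs, and was lower in ULAs in 3 of 3 brains (exact sign-flip permutation test, p = 0.25, the smallest possible).

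Aqp4, the water channel of astrocyte endfeet, lies on chromosome 18 from 15547903 to 15562193 (NM_009700, minus strand, 5 exons, mm9). Aqp4 was at 251.36, 225.13 and 189.62 RPKM in ULAs and at 227.41, 181.99 and 193.43 RPKM in DLAs. Brain 1 was highest in both layers, and in brain 3 the values of the layers were almost equal, with a ratio of 0.98. The log2 difference was 0.14 (SE 0.10, 95% interval −0.08 to 0.36, adjusted p = 0.515). Relative to Kcnj10, with which it shares the endfoot membrane, Aqp4 was 7.77 ± 0.913 times as abundant in ULAs and 6.36 ± 0.761 times in DLAs. This ratio was higher in ULAs in 3 of 3 brains, with log2 differences of 0.30, 0.33 and 0.24 that varied little (exact sign-flip permutation test, p = 0.25, the smallest possible), although the values of the layers overlapped.

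Mlc1, a membrane protein of endfeet and astrocyte contacts, was the member with the second highest level and varied least with layer after Dmd. Its gene has 12 exons on the minus strand of chromosome 15, from 88786314 to 88808983 in mm9 (NM_133241). It was at 652.27, 575.07 and 615.06 RPKM in ULAs and at 614.43, 611.03 and 551.46 RPKM in DLAs. The layers overlapped and brain 2 went against the others, with a log2 difference of 0.05 (SE 0.09, 95% interval −0.16 to 0.26, adjusted p = 0.829). Its partner Hepacam followed it closely: the ratio of Mlc1 to Hepacam was 1.82, 1.8 and 1.8 in the ULAs of brains 1, 2 and 3 and 1.99, 1.91 and 1.84 in the DLAs. These ratios did not overlap between layers, and the log2 difference was small (−0.08 ± 0.05, SD of 3 brains, exact sign-flip permutation test, p = 0.25, the smallest possible).

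**Figure D3:**
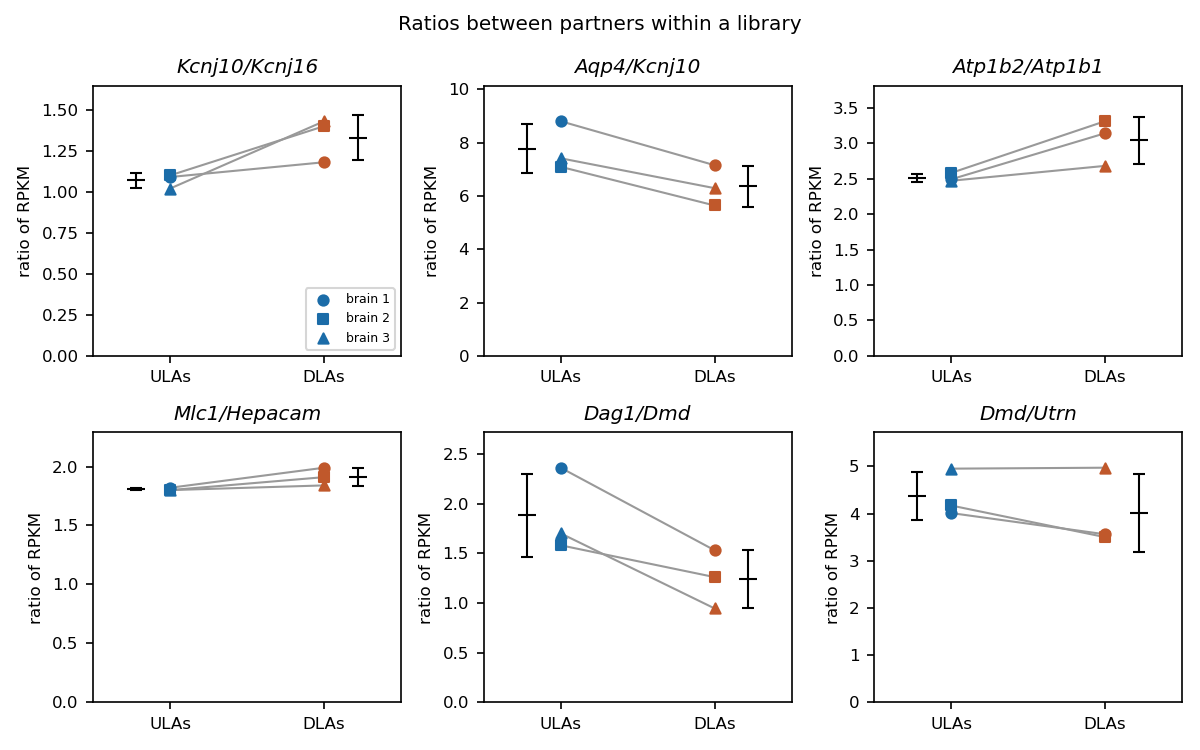
Ratio of the RPKM of 6 pairs of partners within each library (y axes, from 0) in ULAs and DLAs, with 1 symbol per brain, grey lines joining the libraries of a brain, and black bars for the mean ± SD of 3 libraries. Kcnj10/Kcnj16, Atp1b2/Atp1b1 and Mlc1/Hepacam are higher in the DLAs of every brain, Aqp4/Kcnj10 and Dag1/Dmd are higher in the ULAs of every brain, and the values of Dmd/Utrn overlap between the layers.

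Among the scaffold ratios, Dag1 to Dmd fell from 2.36, 1.58 and 1.70 in the ULAs of brains 1, 2 and 3 to 1.53, 1.26 and 0.945 in the DLAs. The layers did not overlap, and the mean log2 difference was 0.60 ± 0.26 (exact sign-flip permutation test, p = 0.25, the smallest possible). Dmd exceeded its widely expressed relative Utrn 4.37 ± 0.503 times in ULAs and 4.01 ± 0.834 times in DLAs. Dtna exceeded Dtnb, the beta dystrobrevin, 8.69 ± 0.664 and 8.03 ± 1.5 times. Both of these ratios overlapped between the layers and did not keep 1 direction over the brains (p = 0.5 for each, exact sign-flip permutation test). As the table's mRNA lengths enter these ratios, their size carries the same doubt about transcripts as the level of Dmd.

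The other proteins that bind dystrophin, utrophin or dystroglycan were examined as a list of 14 genes, of which 10 were expressed at a mean of at least 1 RPKM. None of the 10 was called (2 had an unadjusted p under 0.05, limma), and 9 of them had a log2 difference below 0, with a median of −0.15 against −0.03 for all rows. The sarcoglycans Sgcb and Sgce, the most abundant genes of the list, had log2 differences of 0.20 (adjusted p = 0.341) and −0.24 (0.297).

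For dystroglycan to bind laminin, its outer part must be modified with a sugar chain. All 12 listed enzymes of this chain were expressed, and none was called in either direction (0 with an unadjusted p under 0.05, limma), with a median log2 difference of 0.09. The most abundant were B3gnt1, now named B4gat1, at −0.05 (adjusted p = 0.851), and Tmem5, now named Rxylt1, at −0.06 (0.801). Of 10 listed ligands of dystroglycan, 6 were tested and none was called (1 with an unadjusted p under 0.05). Of these 6, 5 had a log2 difference above 0 and 1 below, with a median of 0.21. The laminin chain Lama2, among the most abundant of them, was the 1 below 0, at −0.33 (adjusted p = 0.297). Hspg2, Lama1, Lamb1 and Egflam had means under 1 RPKM.

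On the potassium side, 4 of 11 other sodium pump subunits and FXYD pump regulators and 8 of 9 other potassium routes were tested, and none was called (2 and 1 with an unadjusted p under 0.05, limma). The potassium channel gene Kcnj2 averaged under 1 RPKM and was not tested. Kcnk1, a two-pore domain potassium channel, was more abundant than any member at 934 RPKM, with a log2 difference of 0.04 (SE 0.09, adjusted p = 0.872). The bicarbonate cotransporter Slc4a4 followed at 92.1 RPKM (0.15, adjusted p = 0.626). Fxyd1 and Kcnma1, named after their values were seen, were higher in the DLAs of all 3 brains with no overlap between layers, and missed the threshold (log2 differences −0.30 and −0.50, adjusted p = 0.233 and 0.107). Kcnma1, a calcium-activated potassium channel, passed only after the correction for mRNA length among the 11 alternative settings.

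Of 6 listed partners of Mlc1 and volume regulators, 5 were tested and none was called (1 with an unadjusted p under 0.05, limma). The most abundant were the receptor Gpr37l1, at 4190 RPKM with a log2 difference of 0.01 (adjusted p = 0.965), and the gap junction gene Gja1, at 2040 RPKM with 0.27 (adjusted p = 0.192). Hepacam lay at 0.13 (adjusted p = 0.517). Aqp4 was by far the most abundant aquaporin: of 8 others, Aqp11 averaged 19.0 RPKM and Aqp9 5.29, with log2 differences of 0.10 and −0.02, 5 averaged less than 0.4 RPKM and Aqp3 was listed at 0 in all 6 libraries. Over the 7 lists together, 0 of 47 tested genes were called and 7 had an unadjusted p under 0.05 (16.4% of all rows did), with 26 differences above 0 and 21 below.

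**Figure D4:**
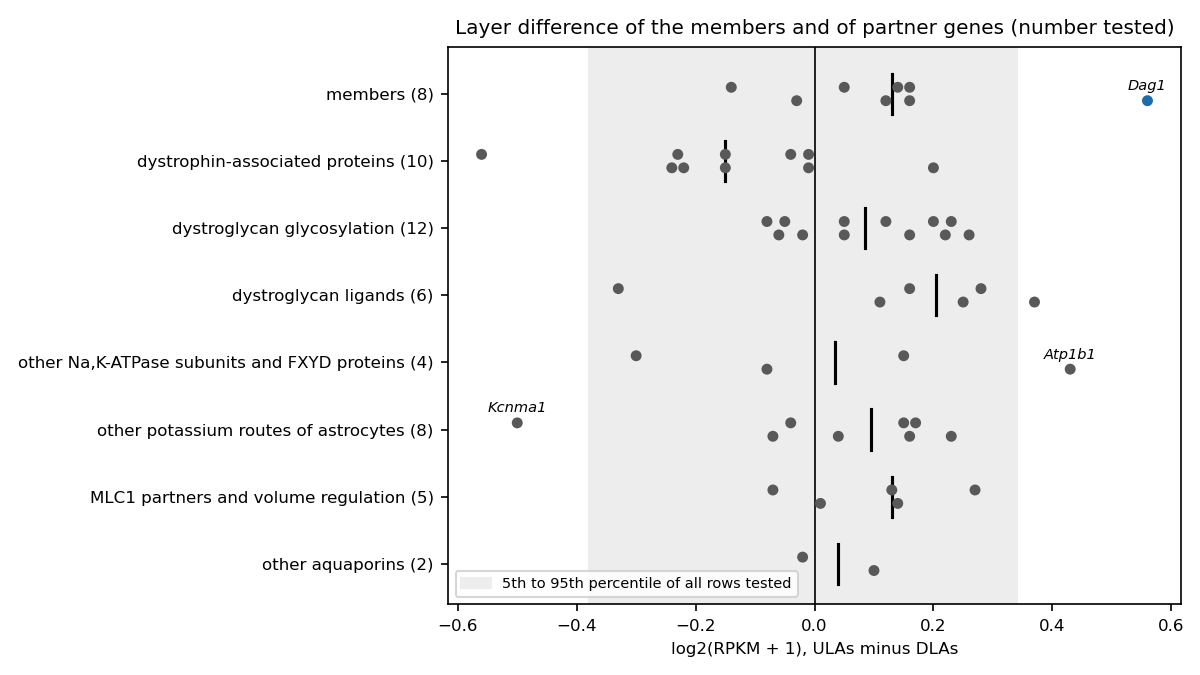
Layer difference (x axis, log2(RPKM + 1), ULAs minus DLAs) of the 8 members and of the tested genes in 7 lists of partner genes, with 1 point per gene, black bars for list medians, blue for an adjusted p under 0.05 and shading for the range from −0.38 to 0.34 that holds 90% of all rows. Dag1 is the blue point at 0.56, and Kcnma1 and Atp1b1 lie outside the shading without having passed.

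Over the 6 libraries, the members did not vary together as 1 group. Dag1 and Atp1b2 followed each other closely on the log2 scale (Pearson's r = 0.98), and Dag1 also correlated with Aqp4 (0.81) and Kcnj16 (0.78). Dmd and Mlc1 went in opposite directions (−0.90), and Kcnj10 was unrelated to Kcnj16 (0.01) and Aqp4 (0.06). These values are descriptions over 6 libraries that share 3 brains. Among 5715 other RefSeq rows of at least 10 RPKM, the pattern most like Dag1 was that of the neutral amino acid transporter gene Slc1a4 (r = 0.994), which was at 181.79, 143.88 and 130.07 RPKM in ULAs and at 128.87, 104.77 and 89.81 RPKM in DLAs. The rows most like the others were Klf7 for Kcnj10 (0.988), Adam17 for Kcnj16 (0.984), Eif4g1 for Aqp4 (0.997), Pcdhgc4 for Atp1b2 (0.998), Ehbp1 for Dtna (0.999), Sycp3 for Dmd (0.992) and Oplah for Mlc1 (0.981). The rows of the gamma protocadherins, Pcdhgc4 among them, overlap and share exons, so their reads may be split between them. With 6 libraries, such values are common: between 26 and 129 rows exceeded r = 0.9 for each member.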

How the data were processed

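Libraries from sorted ULAs and DLAs were made with the SMART-Seq v4 and Nextera XT kits and read as single reads of 36 bases. The submitters' processing notes name CASAVA 1.8.2, bcl2fastq 1.8.4 and the mm9 build. The aligner and the counting program are not given in the sources used here. The authors deposited RPKM for each row of a joint annotation, without pooling replicates. Whether the counting used strand is not stated. Starts are given here counted from 1.

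Depth was read from short rows (500 bases or less), whose RPKM moved in steps of whole reads (at least 99.1% of distinct values came out whole, against at most 53.5% for any depth over 2% away). All rows that averaged 1 RPKM or more were tested on log2(RPKM + 1), a scale that understates changes of low genes, with limma 3.58.1 in R 4.3.3 (intensity trend, 2-sided, Benjamini-Hochberg adjustment over all rows tested, brain and layer as terms). The study pairs layers by brain, and deviations from the layer means correlated between libraries of one number (r = 0.42, 0.33 and 0.34 across rows, against −0.20 to −0.16 otherwise). The fit was tested on simulated data. With 3 libraries per layer a permutation test of 1 gene cannot give a p under 0.1, or under 0.25 if paired, so such tests were used for ratios only.

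Members and lists were chosen with earlier results of these data known. Named are the members, in each list every gene called and the 2 most abundant tested, the partners in the 9 ratios, and the row most like each member. Other genes, including those under 1 RPKM, were chosen after their values were seen, and some genes and ratios that this rule names are not reported here. List symbols were matched through RefSeq synonyms where needed, and 70 of 70 partner genes were found. Summaries and figures used Python 3.11.15, pandas 2.3.3, scipy 1.17.1 and matplotlib 3.10.9. Alternatives were no brain term, a pseudocount of 0.1, no filter, at least 5 RPKM, median centring, quantile normalization, no variance trend, a loess correction for mRNA length (span 0.5) and each brain left out.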

Additional observations from a re-analysis of the deposited data

How the results depend on the processing

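Dag1 was called in 7 of 11 alternative settings, always with the same direction, and no other member was called in any. The number of members called higher in ULAs fell from 1 to 0 without the replicate block, with no filter on low RPKM and without a variance trend, and was 0 to 1 with a brain left out. Over all rows, the counts higher in ULAs and DLAs were 100 and 128, with 23 and 18 without the replicate block, 65 and 79 without a variance trend, and 0 and 0 with no filter (27963 rows, limma, 1124 and 1675 with an unadjusted p under 0.05). The correction for mRNA length gave 77 and 78. With a brain left out they were 104 to 426 and 126 to 687, in both cases highest without brain 3. Partner genes called, 0 in either direction, became 1 and 1 where rows of at least 5 RPKM were tested, 1 higher in ULAs under quantile normalization, 1 higher in DLAs after the length correction, and 0 to 2 and 0 to 1 with a brain left out. The causes were not tested.

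Members close to 0 changed sign. Dmd was at 0.07 under quantile normalization and at −0.17 to 0.08 with a brain left out, Dtna at −0.02 to 0.24 and Mlc1 at 0.00 to 0.12. Among partner genes, none of them called at these settings, B3gnt1, Tmem5 and Dtnb turned to 0.07, 0.04 and 0.03 under quantile normalization and to 0.03, 0.05 and 0.03 after the length correction. Gpr37l1 was at −0.07 under quantile normalization, Aqp9 at 0.01 after the length correction and Dtnb at 0.00 under median centring. With a brain left out the ranges were −0.09 to 0.20 for Aqp11, −0.06 to 0.03 for Aqp9, −0.09 to 0.05 for Dtnb, −0.05 to 0.13 for Gpr37l1 and −0.05 to 0.35 for Slc4a4. The layer difference rose with mRNA length (Spearman's rho across rows of 0.21, 0.37 and 0.10 in brains 1, 2 and 3). The part of length in these sign changes was not tested. With 19.7 to 29.6 M reads per library, counting error was at most 2.34% of a member's value. The SD between the libraries of a layer was 2.45% to 18.5% of a member's mean. Whether more brains or more depth would raise the members' precision was not tested.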
